A study of Homo sapiens with 6 samples.

Results

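The replication-dependent histone gene clusters of human chromosome 6 were examined in CpG methylation data from the human prostate carcinoma line PC-3. Members were all CpGs in 2 intervals of the hg19 build, chr6:26015000-26290000 (the proximal interval) and chr6:27770000-27870000 (the distal interval), with at least 10 reads, both strands summed, in 2 or more libraries of each group. This gave 154 CpGs, 106 in the proximal and 48 in the distal interval, of 686608 CpGs that met the same coverage rule in the whole series and 26882 on chromosome 6. The study compared 3 libraries from cells given 160 µM S-adenosylmethionine (SAM), the methyl donor of DNA methyltransferases, with 3 libraries from cells given the vehicle PBS, each for 5 days. All groups share the 1 cell line, whose identity was not checked here because the data hold no expression. Whether the replicates came from separate cultures is not stated in the labels, so spreads and p-values cover only the variation between these samples, perhaps technical. Where 3 values are given for a group, they stand in the order of replicates 1, 2 and 3.

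Replication-dependent histone genes encode the linker histone H1 and the core histones H2A, H2B, H3 and H4 that package newly made DNA, and they are transcribed mainly in S phase. They stand in dense clusters of short genes without introns, and their messenger RNAs end in a stem-loop in place of a poly(A) tail. In the RefSeq gene order, the proximal interval and its nearest placed flanks hold protein-coding genes for 5 H1, 4 H2A, 8 H2B, 7 H3 and 8 H4 histones and 7 other genes, among them HFE, the iron-regulating gene of haemochromatosis, and butyrophilins. The distal interval and its flanks hold 1 H1, 5 H2A, 4 H2B, 3 H3 and 3 H4 genes and 4 others. No hg19 gene annotation was used, so a CpG was tied to a gene only where the spacing of at least 5 listed CpGs matched the CpGs of a RefSeq promoter sequence.

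That rule placed the promoters of 2 histone genes, and their sequences are shown because they stood at opposite ends of the methylation range. H4C8 encodes histone H4, and H1-6 encodes H1t, the linker histone of the testis. Each line gives the 250 bases before the start site, 5′ to 3′ on the gene's strand, from the RefSeq tables of build GRCh38.p14. Capitals mark CpGs that were listed in at least 1 library.

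H4C8: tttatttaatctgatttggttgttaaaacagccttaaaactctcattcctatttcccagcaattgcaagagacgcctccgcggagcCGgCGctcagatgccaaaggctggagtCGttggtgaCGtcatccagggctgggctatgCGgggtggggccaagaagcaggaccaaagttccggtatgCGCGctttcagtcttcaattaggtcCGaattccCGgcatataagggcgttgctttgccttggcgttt

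H1-6: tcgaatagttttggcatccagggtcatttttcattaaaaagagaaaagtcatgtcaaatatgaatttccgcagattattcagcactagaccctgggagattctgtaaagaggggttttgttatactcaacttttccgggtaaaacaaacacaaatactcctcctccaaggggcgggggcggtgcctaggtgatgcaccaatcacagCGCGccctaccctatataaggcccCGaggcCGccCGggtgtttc

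Both genes read from the minus strand. The listed CpGs put the H4C8 sequence at hg19 chr6:26285763-26286012 and the H1-6 sequence at hg19 chr6:26108364-26108613. The start sites lay 177399 bases apart in these hg19 positions and 177399 bases apart in the RefSeq table. The placement is by spacing alone, and 31 of 23283 promoters of other chromosomes with enough CpGs also met the rule in the same intervals. The H4C8 sequence held TATAA, the core of a TATA box, 29 bases before the start site. With both strands searched, the H1-6 sequence held TATAA at 30 and at 131 bases before it, and CCAAT at 54.

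The H4C8 promoter was almost free of methylation in all 6 libraries. Its 9 listed CpGs carried 5 methylated reads among 3471, all 5 at the CpG farthest from the start site, 163 bases before it. The mean level over its listed CpGs was 0.159% in SAM replicate 1, 0% in SAM replicates 2 and 3, 0.222% in control replicate 1 and 0% in control replicates 2 and 3. Depth ranged from 59 reads over 4 CpGs in control replicate 2 to 1262 reads over 9 CpGs in control replicate 3. The promoter window of LOC124901287, on the plus strand, overlaps that of H4C8 and holds the same 9 CpGs.

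The H1-6 promoter was listed in control replicate 3 only, with 10 reads at each of 5 CpGs, and none of them is a member. There, 46 of 50 reads were methylated (92%). The 5 levels were 100%, 100%, 90%, 90% and 80% at 9, 13, 19, 41 and 43 bases before the start site. Reads without molecular identifiers are not independent molecules, and 1 library gives no replicate check.

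Promoters of the clusters' histone genes share sequence features that the choice of CpGs did not use. Of 44 histone promoter sequences in the table, 43 held TATAA on either strand within 250 bases before to 50 bases after the start site, against 20.4% of all 35116 promoters. CCAAT stood in 37 of 44, against 34.6% of all. The 7 without it were H4 promoters, of which 2 of 9 held it. ATTTGCAT, the octamer bound by Oct-1 in H2B promoters, stood in 9 of 12 H2B and 7 of 9 H2A promoters, in 1 of 8 H3 and in none of the 6 H1 and 9 H4 promoters, against 1.77% of all promoters. None of the 3 motifs contains another. Both strands were searched, so a site can count for more than 1 gene where the windows of neighbouring genes overlap. Such overlap was not examined for these counts. CpGs numbered 3 to 25 in these histone promoters, with a median of 9, against a median of 14 over all promoters.

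The libraries read the clusters to different extents. The intervals held 340 CpGs listed in any library, of which 67 were listed in all 6. SAM replicates 1 and 3 and control replicates 1 and 3 each listed all 154 members, while SAM replicate 2 listed 88 and control replicate 2 listed 95. Median reads at the listed members were 41, 25 and 50 with SAM and 54.5, 21 and 64 in controls. Totals over the series were 33056018 to 183523792 reads a library. The 186 listed CpGs that are no members had a mean level of 39.5%, and 58.1% of them were under 20%.

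Most member CpGs were either nearly unmethylated or nearly fully methylated. Averaged over the libraries that listed them, 58 of 154 (37.7%) had a level under 20%, 87 (56.5%) a level over 80% and 9 (5.84%) a level between. Not a single methylated read appeared in any library at 40 CpGs, which had 101 to 846 reads each. At the shallowest of them this allows a level of up to 2.97%, counting error only. Every read was methylated in every library at 9 CpGs, with 58 to 1305 reads each. The mean over the members was 58.5% and the median 93.4%.

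**Figure D1:**
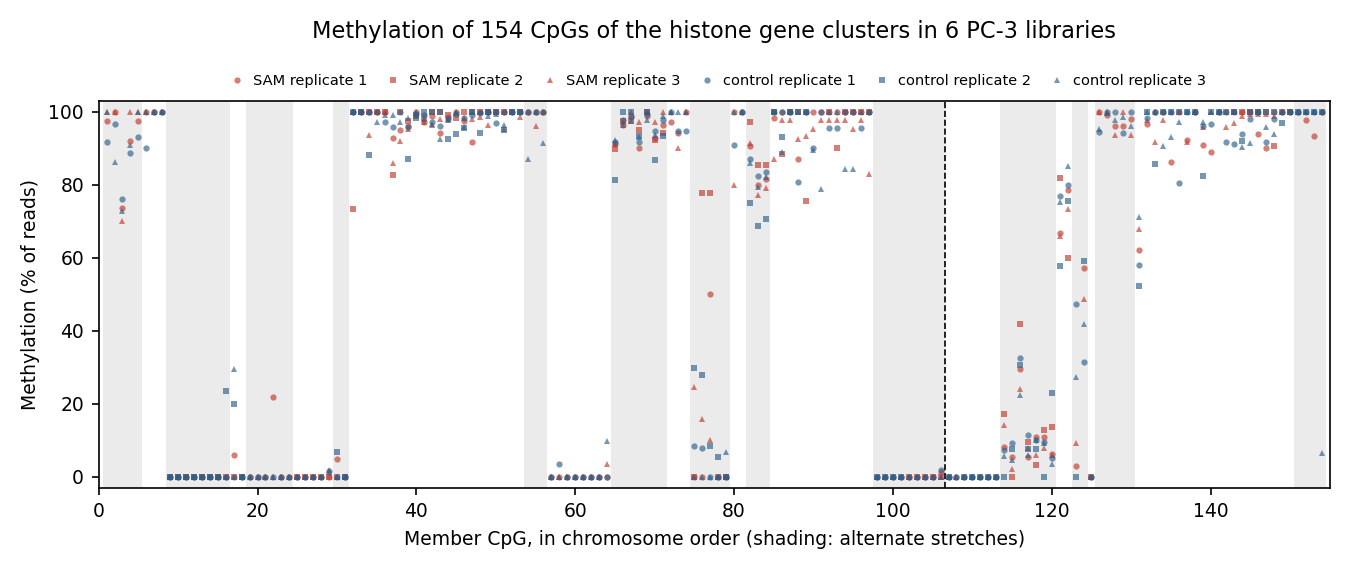
Methylation level (% of reads, y axis) of each of the 154 member CpGs by rank along the chromosome (x axis), 1 point per library, coloured by group; shading marks alternate stretches and the dashed line separates the intervals. Points gather near 0% and near 100% in both groups, and 9 CpGs have a mean between 20% and 80%.

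The clusters held fewer CpGs of middle level than the whole series. Over all 686608 CpGs, 55% were under 20%, 13.4% between and 31.5% over 80%, with a mean of 38.2%. On chromosome 6 the shares were 56.9%, 12.2% and 30.8%. These shares depend on how densely CpGs are listed. When the whole series was weighted to the clusters' own density of listed CpGs in fixed bins of 1 kb, it had 41.3% low, 14.6% middle and 44.0% high CpGs and a mean of 50.9%. No test was made of these shares, because neighbouring CpGs share reads.

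**Figure D2:**
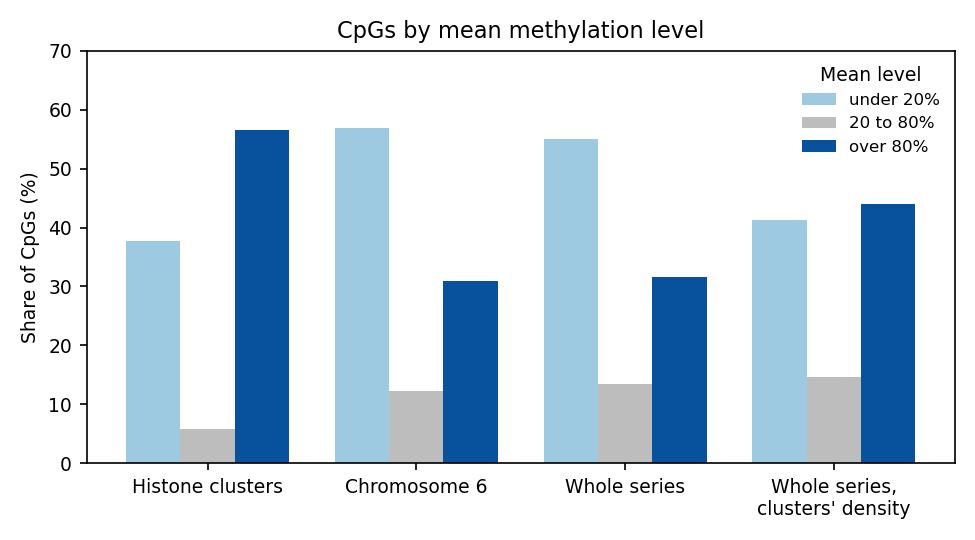
Share of CpGs (%, y axis) with a mean level under 20%, of 20 to 80% and over 80%, for the clusters, chromosome 6, the whole series and the whole series weighted to the clusters' density of listed CpGs in fixed 1 kb bins (bars, no replicates). The middle class takes 5.84% in the clusters and 14.6% in the weighted series.

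Density was also counted around each CpG, as the listed CpGs within 500 bases on either side, itself included, a definition chosen after seeing the data. Among CpGs with 15 to 39 in that window, 41 of 42 members (97.6%) were over 80%, against 19.8% in the whole series. These 42 come from 2 stretches, one in each interval, so they count as 2 regions. Among CpGs with 5 to 14, 61.2% of 85 members were low and 34.1% high, against 35.6% and 49.7% in the whole series. Among those with 1 to 4, 22.2% of 27 members were low and 63.0% high, against 16.6% and 63.2%. The whole series weighted to these classes had 14.8% of middle CpGs. In the fixed 1 kb bins, 50.5% of 107 members with 5 to 14 were low and 44.9% high, against 40.8% and 45.1%. The lower share of high CpGs in that class thus depends on how density is counted. With 15 to 39 in a fixed bin, 100% of 22 members were high, against 19.0%. With 1 to 4, 16% of 25 were low and 68% high, against 18.9% and 61.3%.

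The members fell into 25 stretches, runs of CpGs with gaps of at most 200 bases. By their mean, 11 stretches with 60 CpGs were low (0% to 11.7%), 12 with 90 CpGs were high (82.3% to 99.2%) and 2 with 4 CpGs were middle (32.6% and 73.1%). Over 89926 stretches of the whole series, 30.2% were low, 22.3% middle and 47.6% high. In the proximal interval low and high stretches were interspersed, while in the distal interval the last 3 stretches were high and the 5 before them were low or middle. Of 23 pairs of neighbouring stretches within an interval, 8 passed from low to high or from high to low, over gaps of 4578 to 30413 bases.

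**Figure D3:**
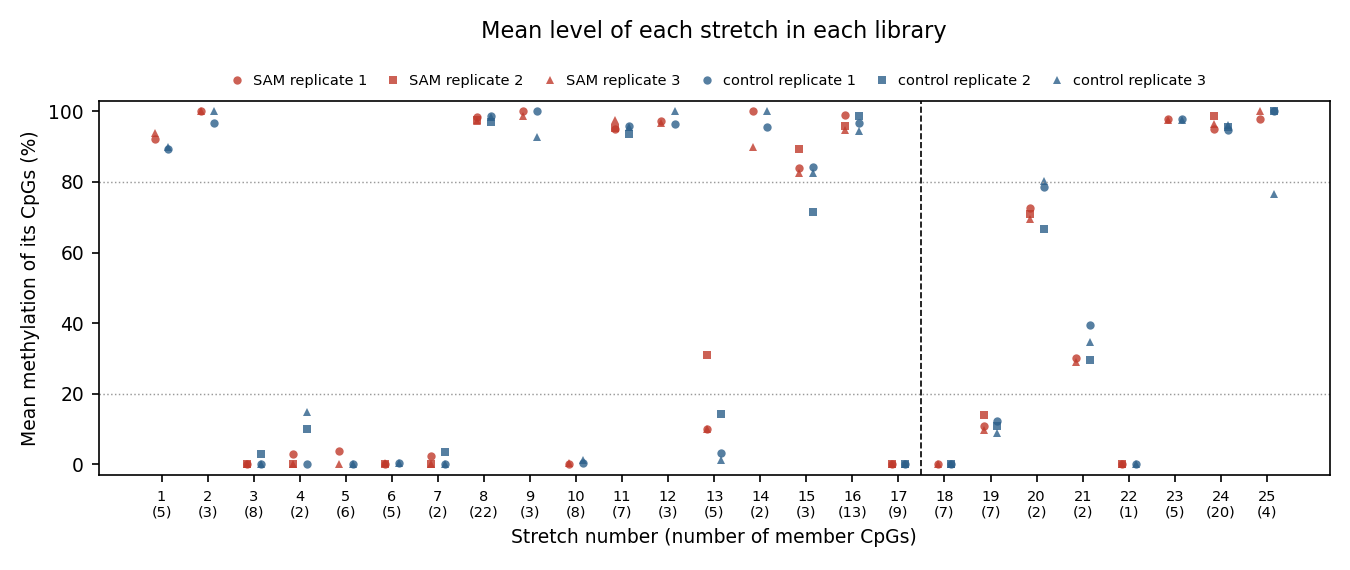
Mean methylation level (%, y axis) of each of the 25 stretches, numbered in order along the intervals with their CpGs in brackets (x axis), 1 point per library, coloured by group; the dashed line separates the proximal from the distal interval. Stretches 13, 25 and 15 (chr6:26233639-26233669, chr6:27858534-27858564 and chr6:26249216-26249248) have the widest range between libraries.

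In the proximal interval the high stretches with most CpGs were 3. The stretch at chr6:26172049-26172278 with 22 CpGs had levels of 98.3%, 97.6% and 97.3% with SAM and 98.7%, 96.9% and 98.5% in controls. The stretch at chr6:26271480-26271577 with 13 CpGs had 98.9%, 95.8% and 94.6% with SAM and 96.7%, 98.6% and 94.3% in controls. The stretch at chr6:26225520-26225573 with 7 CpGs had 94.9%, 95.2% and 97.5% with SAM and 95.9%, 93.5% and 95.6% in controls. In all 3 the SAM and control libraries overlapped. Control replicate 2 listed 18 of the 22 CpGs in the first and 5 of the 13 in the second. SAM replicate 2 listed 11 of those 13. In the distal interval, 20 CpGs at chr6:27839903-27840058 had 95%, 98.8% and 96.5% with SAM and 94.7%, 95.5% and 96.0% in controls. SAM replicate 2 listed only 8 of these 20, without the CpG at 27839903, whose mean was 62.3%. Over the 8 CpGs listed in all 6 libraries, levels were 98%, 98.8% and 99.0% with SAM. In controls they were 96.6%, 98.6% and 96.4%, and the groups overlapped. The other long high stretches were chr6:27835266-27835303 with 5 CpGs and a mean of 97.6%, and chr6:26075768-26075821 with 5 CpGs and a mean of 91.3%. The latter was listed in 2 libraries of each group, at 92.1% and 94.0% with SAM and 89.2% and 90% in controls. Of 8 stretches listed in exactly 2 libraries of each group, it was the 1 higher in both SAM libraries than in both controls, against 15.6% of 16245 such stretches in the series, and 0 of the 8 were lower, against 12%.

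The low stretches with most CpGs besides the H4C8 promoter were chr6:26104281-26104320 and chr6:26199410-26199466, with 8 CpGs each and means of 0.490% and 0.520%. At chr6:27777887-27777939, 7 CpGs had no methylated read in any of the 5 libraries that listed them. The 6 CpGs at chr6:26124540-26124588 averaged 0.915%, and the 5 at chr6:26156624-26156654 averaged 0.193%. The remaining short runs followed the same division. Those at chr6:26099666-26099703, chr6:26182083-26182096 and chr6:26226744-26226781, with 3 CpGs each, averaged 99.2%, 97.9% and 97.6%, and the 2 CpGs at chr6:26247079-26247088 averaged 96.4%. The 2 CpGs at chr6:26104891-26104896 averaged 4.61%, the 2 at chr6:26157421-26157434 averaged 0.981%, and the single CpG at 27804852 had no methylated read.

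A few stretches were low but not empty of methylation, or lay between the classes. The 7 CpGs at chr6:27783080-27783134 stood at 10.9%, 14.1% and 9.76% with SAM and 12.2%, 11% and 8.82% in controls, so each library showed some methylation there. The 2 CpGs at chr6:27794541-27794570 stood at 72.7%, 70.9% and 69.6% with SAM and 78.5%, 66.7% and 80.1% in controls. The 2 CpGs at chr6:27794942-27794972 stood at 30.04% and 29.1% in SAM replicates 1 and 3 and at 39.5%, 29.5% and 34.7% in controls. These means join 2 unlike CpGs, at 17.4% (27794942) and 47.7% (27794971). The CpG at 27794942 ran from 0% in control replicate 2 (38 reads) to 47.4% in control replicate 1 (19 reads). These middle stretches lie 372 bases apart, and neither separated the groups.

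The stretch with the widest spread between libraries was chr6:26233639-26233669, with 5 CpGs. Its levels were 10%, 31.1% and 10.1% with SAM and 3.27%, 14.3% and 1.35% in controls. SAM replicate 2, the highest, had the fewest reads there, 90 over the 5 CpGs. Within it, SAM replicate 2 stood at 77.8% at both 26233641 and 26233647, from 18 reads at each. The range was 23.3 points at chr6:27858534-27858564, where 1 CpG at 27858563 was at 6.67% in control replicate 3 from 15 reads and at 100% in the other 4 libraries that listed it. It was 17.8 points at chr6:26249216-26249248, from 71.4% in control replicate 2 to 89.3% in SAM replicate 2. Over all members the median range between libraries was 5.72 points, and 73 of 154 CpGs ranged by less than 5. Of the 15 CpGs that ranged by more than 20 points, 14 had a library with under 20 reads, as did 94 of all 154 members.

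CpGs of 1 stretch had similar levels. Of 153 CpGs in the 24 stretches with 2 or more, 146 were in the same class as their stretch. That class is set by the mean of the same CpGs, and neighbouring CpGs share reads, so much of this agreement is built in. The median SD between CpGs of a stretch was 2.35 points, against 3.47 points over the whole series. Among 131 CpGs in 15 stretches of 4 or more, 3 departed by at least 10 points from the median of their stretch, in the same direction in each library that listed them. No share over the whole series is given here for these counts of CpGs. The CpG at 26075794 was at 73.1% (70% to 76.1% over 4 libraries), with its neighbours at 96.4%. Only control replicate 1 read it at least 10 times on both strands, at 72.1% on the plus strand (61 reads) and 100% on the minus strand (10 reads). The CpG at 27783096 was at 30.2% (22.5% to 41.9% over 6 libraries), with its neighbours at 7.42%. It was read on the minus strand only in all 6, so its strands could not be compared. The CpG at 27839903 was at 62.3% (52.4% to 71.2% over 5 libraries), with its neighbours at 100%.

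The middle level of the CpG at 27839903 came from its strands. Its plus-strand C was read as C in 99.4% ± 1.32 of reads (SD, n = 5 libraries, 170 reads), and its minus-strand C in 3.08% ± 6.88 (SD, n = 5 libraries, 94 reads). A C changed to T in the cell line reads like an unmethylated C after bisulfite, so the minus-strand value, and the 62.3% that includes it, may not be a methylation level. The possibilities cannot be told apart here. The plus-strand level lay between 97.1% and 100% and the minus-strand level between 0% and 15.4%, so the strands did not overlap. The minus-strand levels rest on 10 to 27 reads a library. Other members read on both strands differed less between them. Their strands differed by a median of 0.699 points over 93 pairs of CpG and library on 34 CpGs, and by over 20 points in 4 pairs. Of these, 3 pairs were among the 18 other CpGs of the same stretch read on both strands. In the whole series, 31 of 25262 CpGs read on both strands in 5 or more libraries (0.123%) differed by over 80 points in each of them, and among members 1 of 8 did. Most members were read on 1 strand only, 37 on the plus and 82 on the minus strand.

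**Figure D4:**
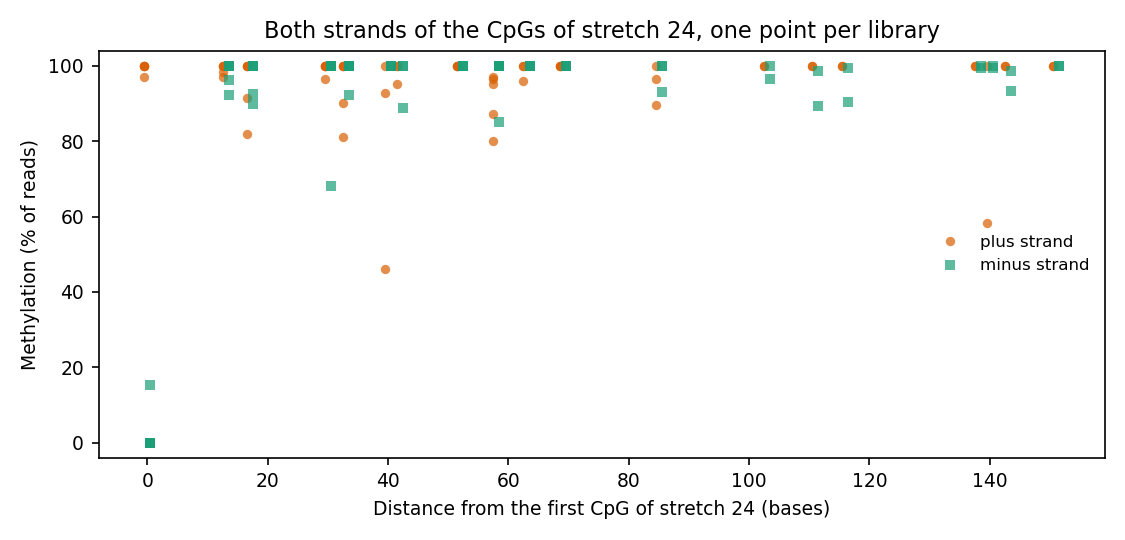
Methylation level (% of reads, y axis) of the plus-strand and the minus-strand C of each CpG read on both strands in the 20-CpG stretch (number 24 of 25), against the distance in bases from its first CpG (x axis), 1 point per library and strand. The minus strand of the first CpG, at 27839903, lies between 0% and 15.4%, below its plus strand in all 5 libraries and below the other CpGs.

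The mean level of the clusters did not separate SAM from PBS. Over the 67 CpGs listed in all 6 libraries, each weighted equally, it was 63.3%, 64.9% and 62.9% with SAM and 62.9%, 63.1% and 62.8% in controls. SAM libraries averaged 63.7% ± 1.09 (SD, n = 3) and PBS libraries 62.9% ± 0.142 (SD, n = 3). SAM stood 0.755 points above PBS (standard error 0.632), within the overlap of the libraries. Without SAM replicate 2, the highest library and 1 of the 2 shallowest, it was 0.143 points, and with CpGs weighted by coverage it was -0.834 points. It was 0.144 points over the 30 CpGs with at least 20 reads and 0.112 points over each library's own members. By coverage over CpGs, average linkage put SAM replicates 1 and 2 with control replicates 1 and 3, and SAM replicate 3 with control replicate 2. Within these clusters it was 1.25 and -0.243 points, the latter from 1 library of each group. Over all 336571 CpGs of the series listed in all 6 libraries it was 0.0197 points, and over the 12174 on chromosome 6 it was 0.104 points.

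Neither interval separated the groups. In the proximal interval, 50 CpGs averaged 65.1% ± 1.12 (SD, n = 3) in SAM libraries and 64.3% ± 0.287 (SD, n = 3) in PBS libraries, 0.818 points apart (standard error 0.670). Without SAM replicate 2 it was 0.185 points, and with a minimum of 20 reads, which left 22 CpGs, it was -0.321 points. In the distal interval, 17 CpGs averaged 59.5% ± 0.974 (SD, n = 3) in SAM libraries and 59.0% ± 0.660 (SD, n = 3) in PBS libraries, 0.573 points apart (standard error 0.679). Without SAM replicate 2 it was 0.0196 points. It was -1.79 points with CpGs weighted by coverage and -1.61 points over each library's own members. The groups overlapped in each interval.

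Single CpGs were tested with edgeR's quasi-likelihood test on methylated and unmethylated counts of all 257696 CpGs listed in all 6 libraries with reads of both kinds, with Benjamini-Hochberg adjustment. None passed an adjusted p of 0.05 in the whole series (0%) and none of the 55 members tested, whose smallest adjusted p was 0.890. The other 12 of the 67 had only methylated or only unmethylated reads. At an unadjusted p under 0.05 there were 7244 CpGs in the series (2.81%) and 3 of the 55 members. With limma on log2 ratios, 0 passed adjustment, and 8996 CpGs (3.49%) and 4 of 55 members had an unadjusted p under 0.05. Over CpGs listed in 2 or more libraries of each group, limma tested 105 members, of which 0 passed adjustment and 6 had an unadjusted p under 0.05, against 3.68% of 490928 CpGs.

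Of the 154 members, 55 were tested, and most of these moved little between the groups. The other members are not covered by the values below. Of the 55 tested, 32 were nominally higher with SAM and 23 lower, with a median difference of 0.555 points and a range of -14.5 to 43.1. Of them, 45 (81.8%) differed by less than 5 points, against 76.2% of all CpGs tested, whose median was 0.0546 points.

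**Figure D5:**
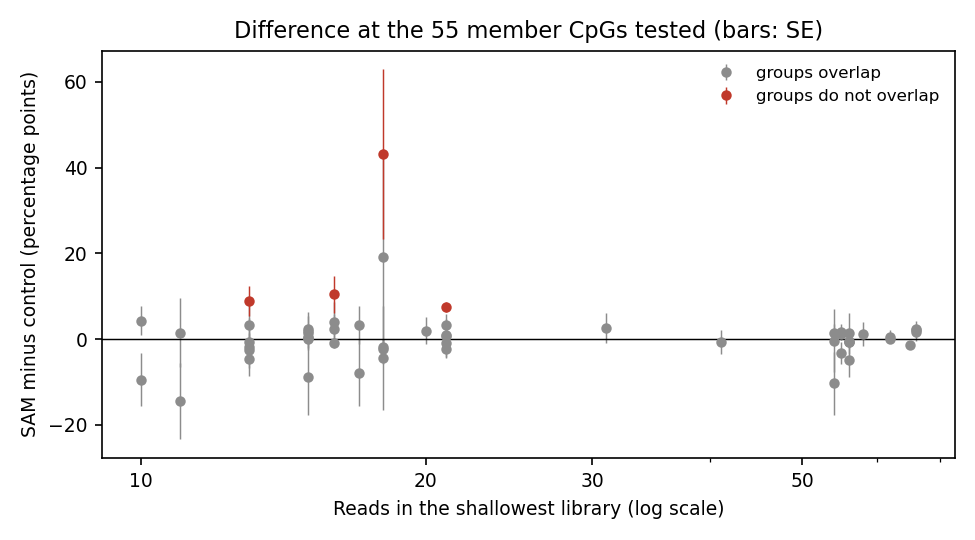
Difference in methylation level, SAM minus control (percentage points, y axis), of each of the 55 member CpGs tested, against the lowest read count of the 6 libraries (x axis, log scale), with bars for the standard error. Of the 55, 45 lie within 5 points of 0, and the CpG at 26233647 stands highest at 43.1 points with 18 reads in its shallowest library.

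The 5 members with the smallest p are given by value, and none passed adjustment (edgeR's quasi-likelihood test, adjusted p = 0.890 for each). The CpG at 27840014 was at 100%, 100% and 98.7% with SAM and 93.9%, 91.9% and 90.4% in controls. The groups did not overlap, and SAM stood 7.51 points higher (standard error 1.08; unadjusted p = 0.0233 by edgeR's quasi-likelihood test). It lies in the 20-CpG stretch at chr6:27839903-27840058.

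The CpG at 26233647, in the stretch with the widest spread, was at 50%, 77.8% and 10.1% with SAM, from 34, 18 and 89 reads. In controls it was at 0%, 8.57% and 0%, from 25, 35 and 73 reads. The groups did not overlap, and their means stood 43.1 points apart (standard error 19.8). Its range without 1 library was 27.2 to 61.0 points, the lowest without SAM replicate 2.

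The CpG at 26271510 was at 100%, 75.5% and 93.4% with SAM and at 100% in all 3 controls. Its neighbour at 26271480 was at 98.2%, 100% and 87.1% with SAM and again at 100% in all 3 controls. The CpG at 26172262 was at 100% in all 3 SAM libraries and at 96.8%, 100% and 99.4% in controls. At these 3 CpGs the groups met at 100%.

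Of the 67 CpGs listed in all 6 libraries, 4 were higher in every SAM library than in any control, against 2.7% of 336571 CpGs of the series, and 0 were lower, against 2.19%. Beside the CpGs at 27840014 and 26233647 these were the CpG at 26249216 and the CpG at 27783080. The CpG at 26249216 was at 90.6%, 97.2% and 91.3% with SAM and 86.9%, 75.0% and 85.9% in controls. The CpG at 27783080 was at 8.13%, 17.2% and 14.3% with SAM and 7.30%, 0% and 5.76% in controls. Control replicate 2, the lowest library at both, had 16 and 13 reads there. The 4 CpGs lie in 4 different stretches, none of which separated the groups as a whole.

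Reads summed over segments, runs of at least 3 CpGs listed in all 6 libraries, gave no call either. Of 35851 segments in the series, 0 (0%) passed edgeR's quasi-likelihood test, and each of the 8 in the clusters had an adjusted p of 1. At an unadjusted p under 0.05 there were 1174 segments of the series (3.27%) and 0 of the 8. With limma 0 passed adjustment, and 4.32% of the series and 0 of the 8 had an unadjusted p under 0.05. Over CpGs listed in 2 or more libraries of each group, limma passed 0 of 59332 segments, and 4.17% of them and 1 of 18 in the clusters had an unadjusted p under 0.05. The smallest p by edgeR belonged to 5 CpGs at chr6:26271480-26271511, which averaged 97.1%, 92.8% and 93.8% with SAM and 96.1%, 98.6% and 97.8% in controls, a difference of -3.0 points with a standard error of 1.49 (unadjusted p = 0.0814 by edgeR). The 8 CpGs at chr6:27840006-27840058 differed by 1.42 points (standard error 0.770) and the 5 at chr6:26233639-26233669 by 10.8 points (standard error 8.10), or 3.75 points without SAM replicate 2. The 8 at chr6:26104281-26104320 differed by -0.980 points, since control replicate 2 held all of the methylated reads, and the 3 at chr6:26249216-26249248 differed by 5.88 points with a standard error of 4.5, which was 1.91 points without control replicate 2 and 3.88 points without SAM replicate 2. The groups overlapped in all 5.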

How the data were processed

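Bisulfite sequencing of genomic DNA gave 1 deposited list of cytosines per library, with strand. Per the file headers each line holds a read count (coverage) and the percent of C and of T. The submitters' processing notes name CASAVA 1.8.2, FastQC 0.10.0, Bismark 0.7.4, methylKit 0.5.3 and hg19, with no role or order. Not given in the sources used here are the library type, read filters and duplicate removal. The lowest deposited coverage was 10 reads, so lower positions are missing, and read counts overstate precision where reads are copies of 1 molecule.

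Methylated reads were recovered as coverage times the deposited percent C and came out whole at every position, within 0.006 points of percent C. Minus-strand positions were joined to the plus-strand C 1 base before. CpGs and segments (at least 3 CpGs listed in all 6 libraries, gaps of at most 200 bases) were fitted over the whole series with edgeR 4.0.16 in R 4.3.3, each library with its own coverage effect, with Benjamini-Hochberg adjustment and a threshold of 0.05. Limma 3.58.1 on log2 ratios (each count plus 1) was an alternative. Both were run on simulated counts with known changes. The outcome is not given here, so the smallest change these tests could find is not stated. Levels of stretches and clusters are means over CpGs, with no test. The level of a stretch in a library is the mean over the CpGs that this library listed. Promoters were placed where at least 5 listed CpGs fell on CpGs of the sequence, none fell elsewhere, and a computed chance was under 1e-06. That chance is for 1 start position with CpGs taken as independent. It makes no allowance for the many positions and sequences tried, so it is not a rate of false placement. Of promoters of other chromosomes with enough CpGs, 31 of 23283 met the rule. Python 3.11.15, numpy 2.4.6 and pandas 2.3.3 did the rest.

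The members and lists were chosen with earlier results of these data known. The rule for naming took the 5 segments and 5 CpGs with the smallest p where fewer passed, the high segments with at least 5 CpGs, and the 3 with the widest range. Stretches, departing CpGs and strand levels were described after their values were seen. Alternatives were a minimum of 20 reads, strands apart, a replicate block, each library left out, weighting by coverage, own CpGs, limma, other gaps, 1 kb tiles, removal of extreme coverage, and other class limits. Added after seeing the data were the coverage sets and clusters, density within 500 bases of a CpG, and segments with missing libraries.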

Additional observations from a re-analysis of the deposited data

How the results depend on the processing

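No member CpG or segment passed adjustment under any alternative run, with edgeR or limma, and none in the whole series did. The difference in mean level, 0.755 points, ranged over 0.143 to 1.18 points with 1 library left out, and was -0.834 weighted by coverage, 0.144 with 20 reads and 0.112 over own members. In the proximal interval the range was 0.185 to 1.26 and the value -0.321 with 20 reads. In the distal interval the range was 0.0196 to 0.942, and the value was 1.42 with 20 reads (8 CpGs), -1.79 weighted by coverage and -1.61 over own members. The cause of these moves was not tested. Shares of members under 20% and over 80% ranged over 37.0% to 38.96% and 55.2% to 56.5% with 1 library left out, and the H4C8 level over 0.0397% to 0.0952%.

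With the replicate number as a block the difference was 0.755 points, which a block cannot move in this balanced design, and 0 members were called. No label says whether the numbers pair the samples, so a pairing is not known. For equal numbers, each library's deviation from its group mean at each CpG was correlated, not the level itself. The r was -0.00509, 0.00846 and -0.00791 over 336571 CpGs, and 0.132, 0.250 and 0.0258 over the member CpGs. Groupings by coverage were chosen after seeing the data. The split into 3 and 3 with the highest mean correlation put SAM replicate 1 with control replicates 1 and 3, where the difference was 0.450 points, and the others together, where it was 0.791. SAM replicate 2 fitted this split poorly, with r of 0.569 and 0.640 inside its set and 0.665 to 0.804 outside. With this set as a term 0 members were called. Average linkage moved SAM replicate 2 to the other set. The difference in the smaller cluster, SAM replicate 3 and control replicate 2, was then -0.243 points, and -0.342 in the proximal interval. Median reads of 21 to 64 a library at the members limit the precision at 1 CpG.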
